A study of Homo sapiens with 12 samples.

Results

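The genes of polyamine metabolism were followed in HK-2 cells, an immortalized line of the human renal proximal tubule. They were the 10 genes of the deposited count table named ODC1, OAZ1, AZIN1, AMD1, SRM, SMS, SAT1, SMOX, PAOX and AOC1, out of 58735 genes, and each name matched 1 row. The rule used gene names and no measured value, and the set was chosen with earlier results of these data known. RNA was sequenced from 12 samples in 4 groups of 3. The control group received water. The others were exposed over 48 h to an X-ray contrast medium containing iodine (iohexol, 75 mg I/mL), to a platinum-based chemotherapy drug (cisplatin, 5 μM) or to a glycopeptide antibiotic (vancomycin, 4 mM). All groups were the same line in the same medium, and each drug was given at 1 dose and 1 time. Cells were lysed in bulk, so fewer cells and less RNA per cell cannot be told apart.

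Polyamines (putrescine, spermidine and spermine) are small, positively charged molecules that bind nucleic acids and that dividing cells need. Ornithine decarboxylase (ODC1) makes putrescine from ornithine. The decarboxylase AMD1 provides the aminopropyl groups that spermidine synthase (SRM) and spermine synthase (SMS) add in turn. Antizyme (OAZ1) binds ODC1 and sends it to the proteasome, and antizyme inhibitor (AZIN1), a relative of ODC1 without its activity, takes antizyme away from it. In the other direction SAT1 acetylates spermidine and spermine, PAOX oxidizes the acetylated forms, SMOX oxidizes spermine itself, and the diamine oxidase AOC1 degrades putrescine. Both oxidases of the acetyl and spermine steps release hydrogen peroxide. Much of the control of ODC1, OAZ1, AMD1 and SAT1 is known to act on translation and protein stability, which counts of mRNA do not measure.

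The mRNA of antizyme itself carries a sensor of polyamines, shown here because its count does not tell how much antizyme is made. Its first reading frame ends early at a stop codon, and full-length antizyme is made only when the ribosome skips a base there, which high polyamine levels favor. On GRCh38 the site lies in a coding exon of OAZ1 at chr19:2271428-2271457, plus strand, and the capitals mark the stop codon.
OAZ1 frameshift site: cctcggtggtgctccTGAtgcccctcaccc
In the GENCODE 29 annotation 2 coding transcripts are modelled with the T at 2271443 left out. Codons were counted in the first of these 2 only. There 66 codons precede the stop, and with the T left out the frame runs for 226 codons.

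The promoters of the 3 genes on which most of the results turn, ODC1, SRM and SAT1, are shown from 5′ to 3′ on the strand of the gene. Each is the longest stretch free of GENCODE 29 exons within the 250 bases before the annotated start (RefSeq, GRCh38.p14). The stretches hold 73, 244 and 216 bases. They end at the GENCODE start of the gene and need not reach the RefSeq start. Capitals mark the motifs GGGCGG, known from SP1, CCAAT, known from NF-Y, and CACGTG, the E-box known from MYC and its relatives, each on either strand.
ODC1 promoter, chr2:10448505-10448577, minus strand: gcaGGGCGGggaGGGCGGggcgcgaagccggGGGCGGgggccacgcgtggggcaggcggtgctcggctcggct
SRM promoter, chr1:11060025-11060268, minus strand: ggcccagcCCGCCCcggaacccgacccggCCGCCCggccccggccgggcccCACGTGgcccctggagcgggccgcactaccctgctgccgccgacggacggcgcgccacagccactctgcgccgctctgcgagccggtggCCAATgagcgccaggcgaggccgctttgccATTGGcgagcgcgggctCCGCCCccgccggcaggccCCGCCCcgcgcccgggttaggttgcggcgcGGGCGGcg
SAT1 promoter, chrX:23782957-23783172, plus strand: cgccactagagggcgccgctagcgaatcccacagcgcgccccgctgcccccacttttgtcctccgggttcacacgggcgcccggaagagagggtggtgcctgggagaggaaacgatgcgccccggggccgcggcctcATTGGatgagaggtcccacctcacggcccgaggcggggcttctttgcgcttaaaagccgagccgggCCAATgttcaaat
Over the 250 bases before the start, GGGCGG was in 42.6%, CCAAT in 32.01% and CACGTG in 6.34% of 35116 promoter entries. CACGTG occurred 1 time before SRM and 1 time before the second of the 2 starts listed for ODC1, and was not in the windows of the other ODC1 start or of SAT1. TATAAA, TGACGTCA (CRE) and TGACTCA (AP-1) were in 10.7%, 1.65% and 4.20% of entries and in none of the entries of these 3 genes. None of the motifs overlaps another, and a match is a description of the letters. The 7 members with an entry were ODC1, OAZ1, AMD1, SRM, SMS, SAT1 and AOC1.

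Total counts were between 14057282 and 18177109 per sample, and 3 counts, taken as the floor, corresponded to 0.177 to 0.218 CPM (counts per 1000000 counts), counting error only. CPM values were scaled by TMM factors, which ran from 0.885 to 0.897 under vancomycin and 0.961 to 0.976 in controls up to 1.02 to 1.04 under iohexol and 1.12 to 1.13 under cisplatin. Of the tubule markers, PAX8 and GGT1 were expressed, while LRP2 and HNF4A, which define the proximal tubule in tissue, had at most 3 counts in any sample. The 9 tubule markers summed to 489.5 to 619 CPM in untreated cells, 647 to 858 CPM under iohexol, 296 to 316 CPM under cisplatin and 726 to 816 CPM under vancomycin. The 4 epithelial markers (KRT8, KRT18, KRT19, EPCAM) summed to 762 to 851, 634 to 769.5, 1229 to 1281 and 1228 to 1346 CPM in the same order. EPCAM went against that sum, with a mean of 101 CPM in untreated cells, 118 under iohexol, 35.4 under cisplatin and 76.9 under vancomycin. The tubule sum was nearly all PAX8 and GGT1, which moved apart under iohexol, from means of 372 to 617 CPM for PAX8 and 189 to 147 CPM for GGT1. The 4 fibroblast markers summed to 37.6 to 47.5, 28.4 to 31.9, 50.2 to 54.4 and 69.6 to 78.4 CPM in the same order. Within that sum DCN fell with cisplatin from a mean of 12.3 to 2.70 CPM, while COL1A1 rose from 30.6 to 48.7 CPM. The 3 endothelial markers summed to at most 4.01 CPM and the 3 leukocyte markers to at most 0.405 CPM in any sample. The marker sums moved with the drug groups, and their part in the results was not tested. The 3 drug comparisons share their control samples. Nothing in the labels says that the samples of a group were separate cultures, so the p-values measure only the spread between these samples, which may be technical.

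In untreated HK-2 cells 9 of the 10 genes were expressed, and the order of their levels was read per kilobase of gene length. That length covers all annotated exons of a gene, and the order depends on it. In CPM without the length, OAZ1 (mean 453 CPM) lay above SMS (376 CPM) in these cells. SMS was highest at 174 CPM per kb (mean, n = 3), followed by OAZ1 at 132, SAT1 at 71.5, ODC1 at 71.2 and SRM at 63.4 CPM per kb. AZIN1 was at 36.1, AMD1 at 24.6, SMOX at 16.7 and PAOX at 1.55 CPM per kb. SAT1 and ODC1 overlapped in their samples, and the other neighbours in this order did not. Among the 17073 genes that passed the filter over all 12 samples, 99.2% lay below SMS, 97.3% below ODC1 and 34.05% below PAOX. AOC1 had 0 counts in 10 of the 12 samples and 4 counts each in sample 1 of the iohexol and sample 1 of the vancomycin group, and it did not pass the filter.

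The order changed with the drugs. With vancomycin SAT1 was the highest of the 10 genes at 244 CPM per kb, above SMS at 172 and OAZ1 at 139, and SMOX, at 43.9, overlapped SRM at 43.8 and lay above ODC1 at 38.3 CPM per kb. With cisplatin SAT1 (157 CPM per kb), OAZ1 (149) and ODC1 (146) led, with overlapping neighbours, ahead of SMS at 106. In CPM without the length, the order of these with cisplatin was OAZ1 (511 CPM), ODC1 (434), SAT1 (393) and SMS (230). SAT1 stayed highest with vancomycin (610 CPM). With iohexol OAZ1 (136 CPM per kb) and SMS (119) overlapped at the top, as did SRM (48.8) and ODC1 (45.2) further down.

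**Figure D1:**
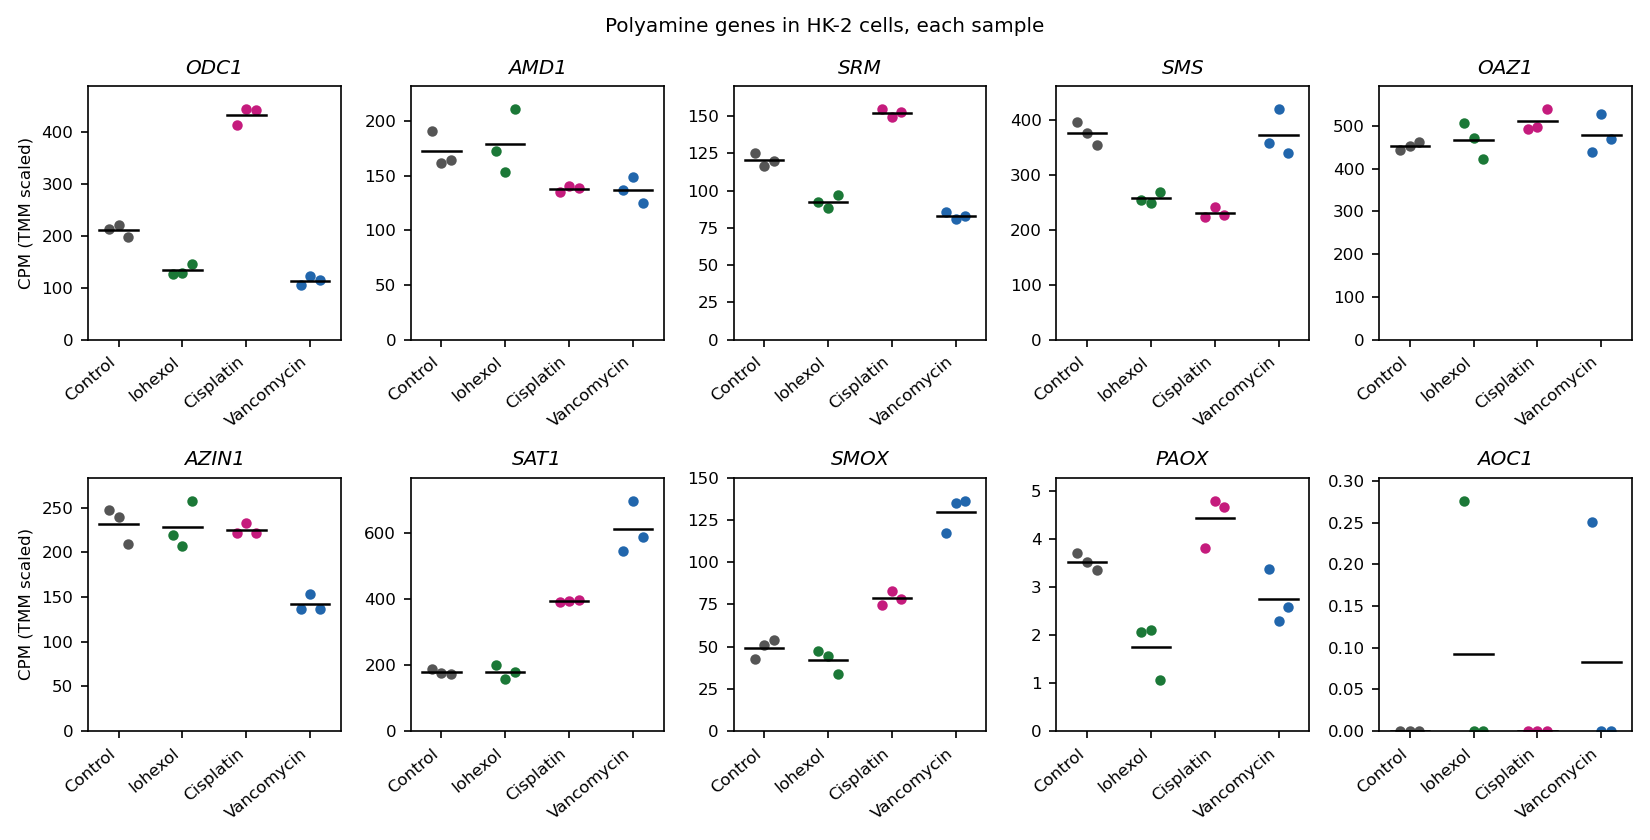
CPM of each of the 10 genes in every sample, by group, 1 panel per gene with its own axis from 0, points for samples and bars for the group mean. ODC1 lies at 415, 445 and 444 CPM with cisplatin and at 104, 122 and 114 CPM with vancomycin, and SAT1 is above its control samples with both.

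Compared with the control group, the 3 drugs gave 3 different sets of calls among the 9 genes tested. Cisplatin raised ODC1 and SRM on the side of synthesis, SAT1 and SMOX on the side of breakdown, and the antizyme OAZ1. It lowered SMS and AMD1, which are also on the side of synthesis. Vancomycin raised SAT1 and SMOX and lowered ODC1, AMD1, SRM and AZIN1. Iohexol lowered ODC1, SRM, SMS and PAOX and raised none. The calls of OAZ1 with cisplatin and of SRM and PAOX with iohexol were lost without some single samples. That of AMD1 with cisplatin was lost when samples were scaled by library size alone. A gene was called at an adjusted p under 0.05 in edgeR's quasi-likelihood test over all genes tested, and was a differentially expressed gene (DEG) when its log2 fold change was also above 1 or below -1.

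With iohexol 0 of 9 were called higher and 4 lower, where 11.2% of all 15657 genes tested were called higher and 9.77% lower (21.0% in all). None of the 9 was a DEG, where 5.28% of all genes were, and their median log2 fold change was -0.21 beside 0.012 over all genes. With cisplatin 5 were called higher and 2 lower, where 29.2% of 15876 genes were called higher and 30.6% lower (59.8% in all). Of the 9, ODC1 and SAT1 were DEGs, a class that took 16.3% of all genes, and the median was 0.33 beside 0.0074. With vancomycin 2 were called higher and 4 lower, where 29.0% of 15819 genes were called higher and 28.8% lower (57.9% in all). SAT1 and SMOX were DEGs there, a class of 18.5% of all genes, and the median was -0.38 beside -0.0084. With cisplatin and vancomycin most genes tested were called, so a call alone does not set a gene apart there. The samples of the drug and the control group did not overlap for 4 genes with iohexol, 8 with cisplatin and 6 with vancomycin, where 37.9%, 65.1% and 63.2% of all genes did not overlap.

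The split between higher and lower depended on the scaling with cisplatin. Scaled by library size alone, the genes tested had a median log2 fold change of 0.23 with cisplatin, 0.084 with iohexol and -0.085 with vancomycin, and 6929 genes were called higher and 3241 lower with cisplatin, in place of 4643 and 4857. With iohexol they were 2237 and 1078 in place of 1754 and 1529. Of the 9 genes, 7 were then called higher with cisplatin and 1 lower, and the counts were 0 and 4 with iohexol and 2 and 4 with vancomycin.

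**Figure D2:**
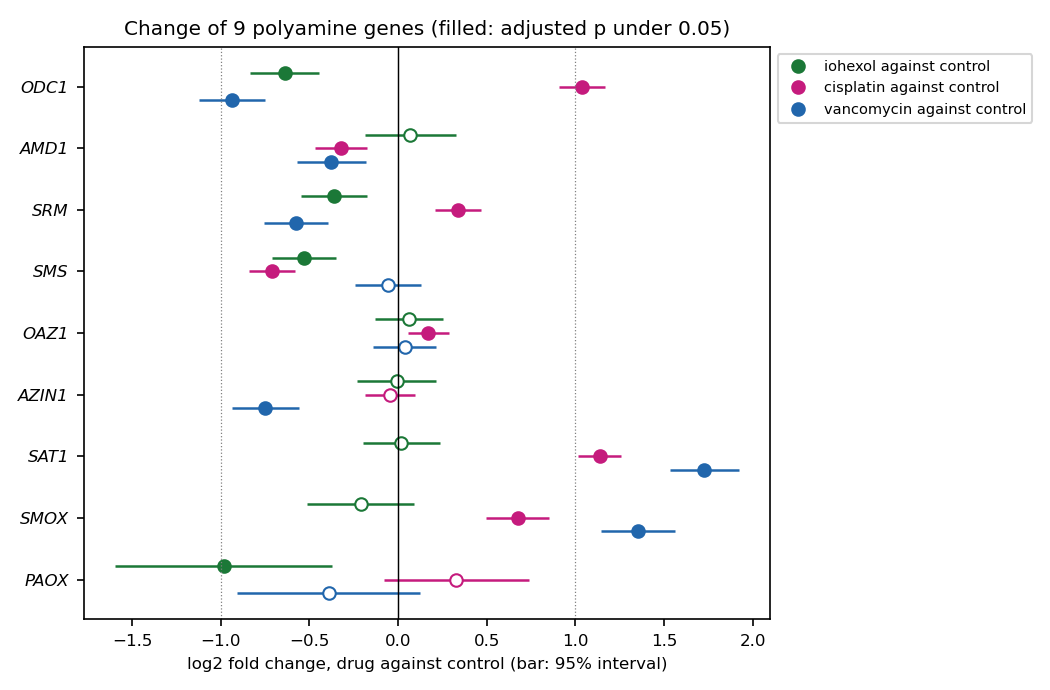
Log2 fold change of the 9 genes tested against the control group for each drug, with the 95% interval as a line. Filled points had an adjusted p under 0.05, open points did not, and dotted lines stand at -1 and 1. ODC1 is at -0.64, 1.04 and -0.94, and SAT1 at 0.018, 1.14 and 1.73 with iohexol, cisplatin and vancomycin.

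ODC1 (ENSG00000115758, chr2:10439968-10448504, GRCh38, minus strand), the first enzyme of synthesis, was at 215, 221 and 198 CPM in the control samples, 128, 129 and 145 CPM with iohexol, 415, 445 and 444 CPM with cisplatin and 104, 122 and 114 CPM with vancomycin. All cisplatin samples lay above all control samples, and all iohexol and vancomycin samples lay below them. Cisplatin raised it from 211 ± 11.8 CPM to 434 ± 17.1 CPM (SD, n = 3), 2.05-fold (log2 fold change 1.04, SE 0.061, adjusted p = 1.38e-10). Iohexol lowered it 1.56-fold (log2 fold change -0.64, SE 0.088, adjusted p = 0.000352) and vancomycin 1.92-fold (log2 fold change -0.94, SE 0.089, adjusted p = 3.65e-09). Its change was above that of 92.7% of all genes tested with cisplatin, of 4.37% with iohexol and of 8.90% with vancomycin. In the test between drugs ODC1 was lower with vancomycin than with cisplatin by 1.93 on the log2 scale (adjusted p = 1.39e-13). The difference between vancomycin and iohexol was small (-0.24, adjusted p = 0.0182) and was no longer called without iohexol sample 3 (adjusted p = 0.0698) or vancomycin sample 1 (0.101), or when only those 2 drug groups were fitted (0.0528). The order of the groups was thus cisplatin, control, iohexol and vancomycin, with the last step resting on those samples and on the fit of all 4 groups.

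SRM (ENSG00000116649, chr1:11054584-11060024, minus strand), which makes spermidine, was at 125, 116 and 119.6 CPM in the control samples, 92.2, 88.6 and 97.03 CPM with iohexol, 155, 149 and 153 CPM with cisplatin and 85.8, 80.7 and 82.8 CPM with vancomycin. Its 4 groups stood in the same order as those of ODC1, and each drug group was clear of the control samples. Cisplatin raised it 1.26-fold (log2 fold change 0.34, SE 0.061, adjusted p = 0.000143). Vancomycin lowered it 1.49-fold (log2 fold change -0.58, SE 0.088, adjusted p = 5.47e-06). Iohexol lowered it 1.28-fold (log2 fold change -0.36, SE 0.086, adjusted p = 0.0115), a call that was lost without iohexol sample 2 (adjusted p = 0.0598). Iohexol and vancomycin were not called different (log2 fold change -0.16, 95% interval -0.31 to -0.0021, adjusted p = 0.0779). Over the 12 samples the log2 CPM of ODC1 and SRM had a Pearson r of 0.98, a description over samples that share their libraries and groups.

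SMS (ENSG00000102172, chrX:21940573-21994835, plus strand), which makes spermine from spermidine, followed another order. It was at 397, 376 and 355 CPM in the control samples, 254, 248 and 268 CPM with iohexol, 222, 242 and 226 CPM with cisplatin and 358, 419 and 339 CPM with vancomycin. The iohexol and cisplatin samples lay below all control samples, and the vancomycin samples overlapped them. Cisplatin lowered it 1.64-fold (log2 fold change -0.71, SE 0.062, adjusted p = 2.72e-08) and iohexol 1.45-fold (log2 fold change -0.53, SE 0.082, adjusted p = 0.000782). With vancomycin no change was called (log2 fold change -0.057, 95% interval -0.24 to 0.13, adjusted p = 0.612). Iohexol and cisplatin were not called different (log2 fold change -0.16, 95% interval -0.33 to 0.015, adjusted p = 0.115). Of the 31-base stretches of SMS, taken every 5 bases, 45.3% also occur in another gene and 39.5% in the processed pseudogene AL354714.2, which held 39 to 105 counts per sample, and reads from those stretches may be counted elsewhere or not at all.

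AMD1 (ENSG00000123505, chr6:110874770-110895713, plus strand), the S-adenosylmethionine decarboxylase, was at 191, 162 and 165 CPM in the control samples, 173, 153 and 211 CPM with iohexol, 135, 141 and 139 CPM with cisplatin and 137, 149 and 125 CPM with vancomycin. Its cisplatin and vancomycin samples lay below all control samples, and iohexol samples overlapped them. Vancomycin lowered it 1.30-fold (log2 fold change -0.38, SE 0.094, adjusted p = 0.00144). Cisplatin lowered it 1.25-fold (log2 fold change -0.32, SE 0.070, adjusted p = 0.000774), which was not called when samples were scaled by library size alone (log2 fold change -0.10, adjusted p = 0.199). With iohexol no change was called (log2 fold change 0.068, 95% interval -0.19 to 0.33, adjusted p = 0.726). Cisplatin and vancomycin were not called different (log2 fold change -0.014, 95% interval -0.23 to 0.20, adjusted p = 0.915), although scaled by library size alone AMD1 was called lower with vancomycin than with cisplatin (log2 fold change -0.35, adjusted p = 0.00472). Of the 31-base stretches of AMD1, 11.8% also occur in another gene. The pseudogene copy AMD1P3 held 1 to 12 counts per sample, AMD1P4 0 to 2, and AMD1P1 and AMD1P2 had 0, as did SRMP1, while SRMP2 held 0 to 5.

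OAZ1 (ENSG00000104904, chr19:2269509-2273490, plus strand), antizyme, was called in 1 of the 3 comparisons with the control group. It was at 443, 454 and 463 CPM in the control samples, 506, 472 and 422 CPM with iohexol, 494, 498 and 539.5 CPM with cisplatin and 438, 529 and 469 CPM with vancomycin. Only the cisplatin samples were clear of the control samples. Cisplatin raised it 1.13-fold (log2 fold change 0.17, SE 0.055, adjusted p = 0.0129), and this call was lost without control sample 2 (adjusted p = 0.0570), without cisplatin sample 3 (0.0959) or in the fit of all 4 groups (0.0872). With iohexol (log2 fold change 0.061, 95% interval -0.13 to 0.25, adjusted p = 0.665) and vancomycin (log2 fold change 0.036, 95% interval -0.14 to 0.21, adjusted p = 0.741) no change was called. Scaled by library size alone its value with vancomycin turned to -0.040. None of the 3 tests between drugs called OAZ1 (adjusted p = 0.197, 0.730 and 0.332), although scaled by library size alone it was called higher with cisplatin than with iohexol (adjusted p = 0.0115) and lower with vancomycin than with cisplatin (0.000116). Its exons share 6.87% of their bases with JSRP1 on the opposite strand, which held 3 to 21 counts per sample. They also share 6.40% with AC005258.1 on the same strand, which had 0 counts.

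AZIN1 (ENSG00000155096, chr8:102826357-102893864, minus strand), which frees ODC1 from antizyme, fell with vancomycin. It was at 248, 239.5 and 209.5 CPM in the control samples, 219.9, 207 and 258 CPM with iohexol, 221, 233 and 222 CPM with cisplatin and 137, 154 and 136 CPM with vancomycin. The vancomycin samples lay below all other samples, and the iohexol and cisplatin samples overlapped the control samples. Vancomycin lowered it 1.68-fold (log2 fold change -0.75, SE 0.091, adjusted p = 1.97e-07), and it was also lower with vancomycin than with iohexol (log2 difference -0.68, adjusted p = 2.25e-06) and cisplatin (-0.66, adjusted p = 2.22e-06). With iohexol (log2 fold change -0.0079, 95% interval -0.23 to 0.21, adjusted p = 0.965) and cisplatin (log2 fold change -0.046, 95% interval -0.19 to 0.095, adjusted p = 0.570) no change was called. Scaled by library size alone AZIN1 was called higher with cisplatin (log2 fold change 0.17, adjusted p = 0.0255). The exons of AZIN1 share 5.35% of their bases with AZIN1-AS1 on the opposite strand, which held 5 to 28 counts per sample, and the strand setting of the counting is not given in the sources used here.

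SAT1 (ENSG00000130066, chrX:23783173-23786226, plus strand), the acetyltransferase that limits polyamine breakdown, had the highest fitted fold change of the 9 genes with vancomycin and, close to ODC1, with cisplatin. It was at 187, 177 and 172 CPM in the control samples, 201, 157 and 178 CPM with iohexol, 392, 392 and 395 CPM with cisplatin and 545, 697 and 588 CPM with vancomycin. All vancomycin samples lay above all cisplatin samples, which lay above all control samples, and the iohexol samples overlapped the control samples. Vancomycin raised it from 179 ± 7.67 CPM to 609.7 ± 78.5 CPM (SD, n = 3), 3.31-fold (log2 fold change 1.73, SE 0.094, adjusted p = 1.94e-13), and cisplatin raised it 2.20-fold (log2 fold change 1.14, SE 0.058, adjusted p = 2.30e-11). These changes were above those of 95.96% and 93.9% of all genes tested. The difference between vancomycin and cisplatin was 0.63 on the log2 scale (SE 0.093, adjusted p = 5.83e-06). With iohexol no change was called (log2 fold change 0.018, 95% interval -0.20 to 0.24, adjusted p = 0.920). None of the 31-base stretches of SAT1 occurs in another gene. The counts do not separate its 9 annotated transcripts, of which 4 code for protein.

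SMOX (ENSG00000088826, chr20:4120980-4187747, plus strand), spermine oxidase, rose in the same 2 groups. It was at 42.4, 50.7 and 54.2 CPM in the control samples, 47.3, 44.4 and 33.9 CPM with iohexol, 74.5, 82.99 and 77.99 CPM with cisplatin and 117, 135 and 136 CPM with vancomycin. As for SAT1, the vancomycin samples were highest, the cisplatin samples next, and the iohexol samples overlapped the control samples. Vancomycin raised it 2.56-fold (log2 fold change 1.35, SE 0.10, adjusted p = 5.88e-11) and cisplatin 1.60-fold (log2 fold change 0.67, SE 0.085, adjusted p = 2.70e-06). Vancomycin exceeded cisplatin by 0.72 on the log2 scale (adjusted p = 1.02e-05). With iohexol no change was called (log2 fold change -0.21, 95% interval -0.51 to 0.091, adjusted p = 0.315). Over the 12 samples SAT1 and SMOX had a Pearson r of 0.96, SMOX and AZIN1 of -0.84 and ODC1 and SAT1 of -0.0027, again as descriptions over shared libraries.

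PAOX (ENSG00000148832, chr10:133379234-133391694, plus strand), which oxidizes acetylated polyamines, was the lowest of the 9 genes, with 51, 56 and 51 counts in the control samples, 30, 33 and 16 counts with iohexol, 63, 78 and 79 counts with cisplatin and 54, 34 and 42 counts with vancomycin. In CPM these were 3.70, 3.51 and 3.35 CPM in the control samples, 2.07, 2.11 and 1.07 CPM with iohexol, 3.82, 4.80 and 4.67 CPM with cisplatin and 3.38, 2.30 and 2.59 CPM with vancomycin. The iohexol samples lay below all control samples and the cisplatin samples above them, and the vancomycin samples reached into their range. Iohexol lowered it 1.98-fold (log2 fold change -0.98, SE 0.28, adjusted p = 0.0274). Without control sample 1, 2 or 3 or iohexol sample 3 this call was lost (adjusted p = 0.0606, 0.0715, 0.0526 and 0.0555). With cisplatin (log2 fold change 0.33, 95% interval -0.080 to 0.74, adjusted p = 0.154) and vancomycin (log2 fold change -0.39, 95% interval -0.91 to 0.13, adjusted p = 0.186) no change was called, and scaled by library size alone it was called higher with cisplatin (log2 fold change 0.55, adjusted p = 0.0201). The exons of PAOX share 6.94% of their bases with AL360181.3 on the same strand, which held 0 to 3 counts per sample. AOC1, with at most 4 counts, was near the floor in every group and no change was detectable at this depth.

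Between drugs, cisplatin was higher than iohexol for 5 of the 9 genes and lower for 1, where 54.0% of 17073 genes were called (26.0% higher and 27.9% lower). Vancomycin was higher than iohexol for 4 and lower for 3, where 56.6% were called (29.0% higher and 27.6% lower). It was higher than cisplatin for 3 and lower for 4, where 64.7% were called (34.7% higher and 30.0% lower). Scaled by library size alone the counts were 6 and 1, 3 and 4, and 3 and 6 in the same order. Over all genes tested, that scaling gave 5643 higher and 3950 lower for cisplatin against iohexol (4447 and 4770 with TMM), 3505 and 6676 for vancomycin against iohexol (4956 and 4711) and 3952 and 7816 for vancomycin against cisplatin (5927 and 5121). The genes that separated cisplatin from vancomycin most were ODC1 and SRM, lower with vancomycin, and SMOX and SMS, higher with it.

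Ratios of counts within a sample do not depend on the scaling between samples. The ratio of ODC1 to OAZ1 counts, the enzyme over its inhibitor, was 0.485, 0.488 and 0.429 in the control samples, 0.252, 0.274 and 0.344 with iohexol, 0.839, 0.894 and 0.822 with cisplatin and 0.239, 0.231 and 0.243 with vancomycin. It was above every control sample with cisplatin and below every control sample with the other drugs, with mean log2 differences of 0.87, -0.70 and -0.97 for cisplatin, iohexol and vancomycin. The ratio of AZIN1 to OAZ1, the inhibitor of antizyme over antizyme, was 0.559, 0.528 and 0.453 in the control samples, 0.434, 0.438 and 0.612 with iohexol, 0.448, 0.467 and 0.411 with cisplatin and 0.313, 0.291 and 0.290 with vancomycin. Only the vancomycin samples were clear of the control samples, with a log2 difference of -0.78, and the differences for iohexol and cisplatin were -0.067 and -0.21.

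The ratio of ODC1 to SAT1, the first step of synthesis over the first step of breakdown, was 1.15, 1.25 and 1.15 in the control samples, 0.636, 0.822 and 0.815 with iohexol, 1.06, 1.13 and 1.12 with cisplatin and 0.192, 0.176 and 0.194 with vancomycin. With cisplatin, where both genes rose, it moved by -0.098 on the log2 scale. With vancomycin, where ODC1 fell and SAT1 rose, it moved by -2.66, 6.32-fold lower, and with iohexol, where ODC1 alone was called, by -0.65. The ratio of SRM to SMS, the synthases of spermidine and of spermine, was 0.316, 0.310 and 0.337 in the control samples, 0.363, 0.357 and 0.362 with iohexol, 0.696, 0.617 and 0.677 with cisplatin and 0.239, 0.193 and 0.244 with vancomycin, a log2 difference of 1.05 with cisplatin, 0.17 with iohexol and -0.52 with vancomycin. The exact two-sided permutation test of 3 against 3 cannot go below p = 0.1, which 10 of the 12 tests reached (adjusted p = 0.12). The other 2 were AZIN1 to OAZ1 with iohexol (exact p = 0.8, adjusted p = 0.8) and with cisplatin (exact p = 0.2, adjusted p = 0.218).

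**Figure D3:**
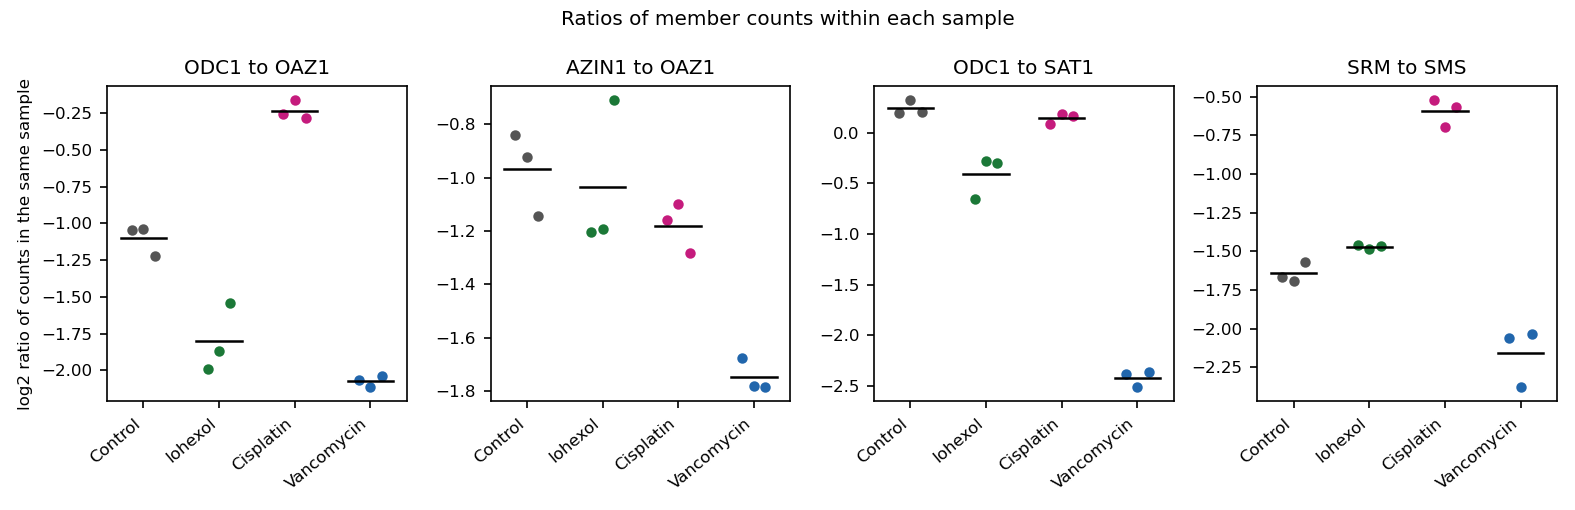
Log2 ratio of the counts of a pair of genes within each sample, by group, for 4 pairs, with points for samples and lines for the group mean. The ODC1 to SAT1 ratio lies at 0.192, 0.176 and 0.194 on the linear scale in the vancomycin samples and at 1.15, 1.25 and 1.15 in the control samples.

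The genes around the pathway were taken from a list of 41, of which 33, 32 and 33 were tested with iohexol, cisplatin and vancomycin. With iohexol 5 were called higher and 8 lower, with cisplatin 13 and 12, and with vancomycin 12 and 12. Of all genes tested, 11.2% were called higher and 9.77% lower with iohexol, 29.2% and 30.6% with cisplatin and 29.0% and 28.8% with vancomycin, and the counts of each class given next stand beside the same shares. The median log2 fold changes of the list were 0.034, 0.033 and 0.014, near those of all genes (0.012, 0.0074 and -0.0084). Scaled by library size alone the counts with cisplatin were 15 higher and 6 lower, with iohexol 6 and 7 and with vancomycin 8 and 13.

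Among the other polyamine enzymes and regulators, 4 of 5 were tested, of which 0 were called with iohexol, 3 were higher with cisplatin and 2 were higher with vancomycin. AZIN2, a relative of AZIN1, was at 3.48, 4.14 and 6.12 CPM in the control samples, 4.49, 3.90 and 3.14 CPM with iohexol, 9.64, 9.36 and 10.04 CPM with cisplatin and 5.51, 7.29 and 7.27 CPM with vancomycin. All its cisplatin samples lay above the control samples, and it rose 2.10-fold there (log2 fold change 1.07, SE 0.18, adjusted p = 5.84e-05). With vancomycin its adjusted p of 0.0499 was lost without control sample 1 (0.204) or 2 (0.144) or vancomycin sample 2 (0.139) or 3 (0.140). OAZ2, a second antizyme, rose 1.48-fold with cisplatin (log2 fold change 0.56, SE 0.070, adjusted p = 2.23e-06), while with iohexol and vancomycin its log2 fold changes of -0.0021 and 0.066 were not called and turned sign with the scaling. The rise of OAZ3 with cisplatin (log2 fold change 1.14, SE 0.36, adjusted p = 0.0123), an antizyme known from the testis, rested on 22, 36 and 30 counts against 10, 9 and 17 and was not called without control sample 2 (adjusted p = 0.0695) or cisplatin sample 2 (0.0686). SAT2, a relative of SAT1 that is known to prefer thialysine over polyamines, was at 9.14, 13.5 and 11.3 CPM in the control samples, 17.3, 14.1 and 11.9 CPM with iohexol, 10.8, 14.2 and 13.1 CPM with cisplatin and 33.2, 43.2 and 41.8 CPM with vancomycin. Its vancomycin samples lay above all others, and vancomycin raised it 3.36-fold (log2 fold change 1.75, SE 0.14, adjusted p = 1.81e-10).

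Of the genes that supply ornithine, 5 of 7 were tested. With iohexol 1 was higher and 0 lower, with cisplatin 3 and 1, and with vancomycin 0 and 3. ARG2, the mitochondrial arginase, was at 9.72, 8.59 and 8.35 CPM in the control samples, 19.1, 19.6 and 17.4 CPM with iohexol, 6.73, 7.70 and 6.97 CPM with cisplatin and 12.7, 10.7 and 9.79 CPM with vancomycin. It was the DEG of this class with iohexol, where it rose 2.13-fold (log2 fold change 1.09, SE 0.13, adjusted p = 0.000149) and its samples lay above all others. Ornithine aminotransferase (OAT) rose with cisplatin (log2 fold change 0.57, SE 0.061, adjusted p = 3.99e-07) and fell with vancomycin (log2 fold change -0.34, SE 0.089, adjusted p = 0.00201).

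Of the genes of the methionine cycle and of methylthioadenosine salvage, which make the donor of aminopropyl groups and recover its remainder, 8 of 9 were tested. With iohexol 2 were higher and 2 lower, with cisplatin 3 and 3, and with vancomycin 1 and 4. MTAP, which cleaves methylthioadenosine, was lower with iohexol (log2 fold change -0.40, SE 0.098, adjusted p = 0.0145), cisplatin (log2 fold change -0.39, SE 0.074, adjusted p = 0.000216) and vancomycin (log2 fold change -0.28, SE 0.10, adjusted p = 0.0252). Its call with iohexol was lost without control sample 2 (adjusted p = 0.0573) or iohexol sample 1 (0.0577), and with vancomycin without control sample 2 (0.0589) or vancomycin sample 1 (0.0526) or 3 (0.185). Scaled by library size alone, its adjusted p with cisplatin was 0.0507. MAT2A, which makes S-adenosylmethionine, was slightly higher with iohexol (log2 fold change 0.31, SE 0.086, adjusted p = 0.0247) and cisplatin (log2 fold change 0.17, SE 0.056, adjusted p = 0.0170). Leaving out 1 sample kept these values at 0.25 to 0.35 with iohexol and 0.13 to 0.18 with cisplatin, but often ended the call. With iohexol the call was lost without control sample 1, 2 or 3 or iohexol sample 2 (adjusted p = 0.0529, 0.174, 0.0941 and 0.0731). With cisplatin it was lost without control sample 2 or cisplatin sample 1, 2 or 3 (adjusted p = 0.125, 0.0522, 0.0536 and 0.0752).

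All 4 genes of hypusine formation were tested. This is the modification of EIF5A, the translation factor that takes an aminobutyl group from spermidine. With iohexol 0 were higher and 1 lower, with cisplatin 2 and 0, and with vancomycin 3 and 1. EIF5A was at 365, 438 and 423 CPM in the control samples, 348, 319 and 279 CPM with iohexol, 374, 391 and 393 CPM with cisplatin and 534, 581 and 543 CPM with vancomycin. Its vancomycin samples were above all control samples (log2 fold change 0.39, SE 0.087, adjusted p = 0.000475), and with iohexol it was lower (log2 fold change -0.36, SE 0.10, adjusted p = 0.0289), a call lost without control sample 2 (adjusted p = 0.122), control sample 3 (0.0774) or iohexol sample 2 (0.0676). With cisplatin EIF5A was not called (log2 fold change -0.085, 95% interval -0.22 to 0.050, adjusted p = 0.265), except without control sample 1 (log2 fold change -0.16, adjusted p = 0.000889). The hydroxylase DOHH, which completes hypusine, was at 21.8, 27.9 and 28.1 CPM in the control samples, 31.5, 28.8 and 22.5 CPM with iohexol, 58.96, 62.2 and 64.99 CPM with cisplatin and 29.4, 35.6 and 36.6 CPM with vancomycin and rose 2.39-fold with cisplatin (log2 fold change 1.25, SE 0.094, adjusted p = 3.75e-09). Its smaller rise with vancomycin (log2 fold change 0.34, SE 0.12, adjusted p = 0.02002) was lost without control sample 1 (adjusted p = 0.101) or vancomycin sample 2 (0.0679) or 3 (0.0896). DHPS, which starts hypusine, held 15, 32 and 43 counts in the control samples and 65, 48 and 50 with vancomycin, a rise (log2 fold change 0.76, SE 0.30, adjusted p = 0.0341) that was lost without control sample 1 (adjusted p = 0.181) or 2 (0.0622) or vancomycin sample 1 (0.129) or 2 (0.0536).

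Of 12 genes tied to polyamine transport and uptake, 9 were tested with iohexol and vancomycin and 8 with cisplatin. With iohexol 2 were higher and 3 lower, with cisplatin 1 and 6, and with vancomycin 5 and 2. SLC3A2, the heavy chain of amino acid exchangers that has been tied to polyamine export, was at 119, 133 and 135 CPM in the control samples, 197, 183 and 149.96 CPM with iohexol, 181, 182 and 199.6 CPM with cisplatin and 236, 272 and 252 CPM with vancomycin. It was higher with iohexol (log2 fold change 0.47, SE 0.11, adjusted p = 0.0105), cisplatin (log2 fold change 0.54, SE 0.067, adjusted p = 2.19e-06) and vancomycin (log2 fold change 0.93, SE 0.089, adjusted p = 3.60e-09), and the first call was lost without iohexol sample 1 (adjusted p = 0.0518). GPC1, a glypican whose heparan sulfate binds polyamines, was at 108, 121 and 118 CPM in the control samples, 85.8, 84.6 and 69.9 CPM with iohexol, 74.6, 71.8 and 73.7 CPM with cisplatin and 288, 276 and 295 CPM with vancomycin. Its vancomycin samples were above all control samples (log2 fold change 1.26, SE 0.087, adjusted p = 1.31e-11), and it was lower with iohexol (log2 fold change -0.51, SE 0.10, adjusted p = 0.00442) and cisplatin (log2 fold change -0.66, SE 0.066, adjusted p = 1.71e-07).

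CAV1, the coat protein of caveolae, was at 412, 380.3 and 355 CPM in the control samples, 400.3, 364 and 432 CPM with iohexol, 245, 241 and 238 CPM with cisplatin and 179.9, 178 and 159 CPM with vancomycin. It fell with vancomycin (log2 fold change -1.19, SE 0.090, adjusted p = 7.32e-11) and cisplatin (log2 fold change -0.66, SE 0.063, adjusted p = 7.71e-08), and its iohexol samples overlapped the control samples (log2 fold change 0.077, 95% interval -0.12 to 0.28, adjusted p = 0.5999). ATP13A3, a transporter of polyamines across endosomal membranes, was lower with cisplatin (log2 fold change -0.28, SE 0.061, adjusted p = 0.000802), but not when scaled by library size alone (adjusted p = 0.386). Its call with vancomycin (log2 fold change 0.22, SE 0.090, adjusted p = 0.0425) was lost without control sample 2 (adjusted p = 0.179), control sample 3 (0.168) or vancomycin sample 1 (0.192). The organic cation transporter SLC22A3 fell with iohexol (log2 fold change -1.11, SE 0.24, adjusted p = 0.00638), from 49, 59 and 56 counts to 20, 26 and 29. With cisplatin it was lower at 43, 36 and 26 counts (log2 fold change -0.78, SE 0.24, adjusted p = 0.00977), a call lost without cisplatin sample 3 (adjusted p = 0.0596).

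Of MYC, its relatives and their partner MAX, 3 of 4 were tested, and 0 were higher and 2 lower with iohexol, 1 and 2 with cisplatin and 1 and 2 with vancomycin. MYC, the transcription factor known to drive ODC1 through E-boxes, was at 364, 375 and 369.8 CPM in the control samples, 276, 284 and 259 CPM with iohexol, 219.8, 228 and 225 CPM with cisplatin and 190.5, 199 and 204 CPM with vancomycin. Every drug sample lay below every control sample, and it fell with iohexol (log2 fold change -0.42, SE 0.080, adjusted p = 0.00311), cisplatin (log2 fold change -0.72, SE 0.054, adjusted p = 3.82e-09) and vancomycin (log2 fold change -0.95, SE 0.083, adjusted p = 8.58e-10). ODC1 and SRM, by their values above, rose with cisplatin and fell with the other 2 drugs.

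**Figure D4:**
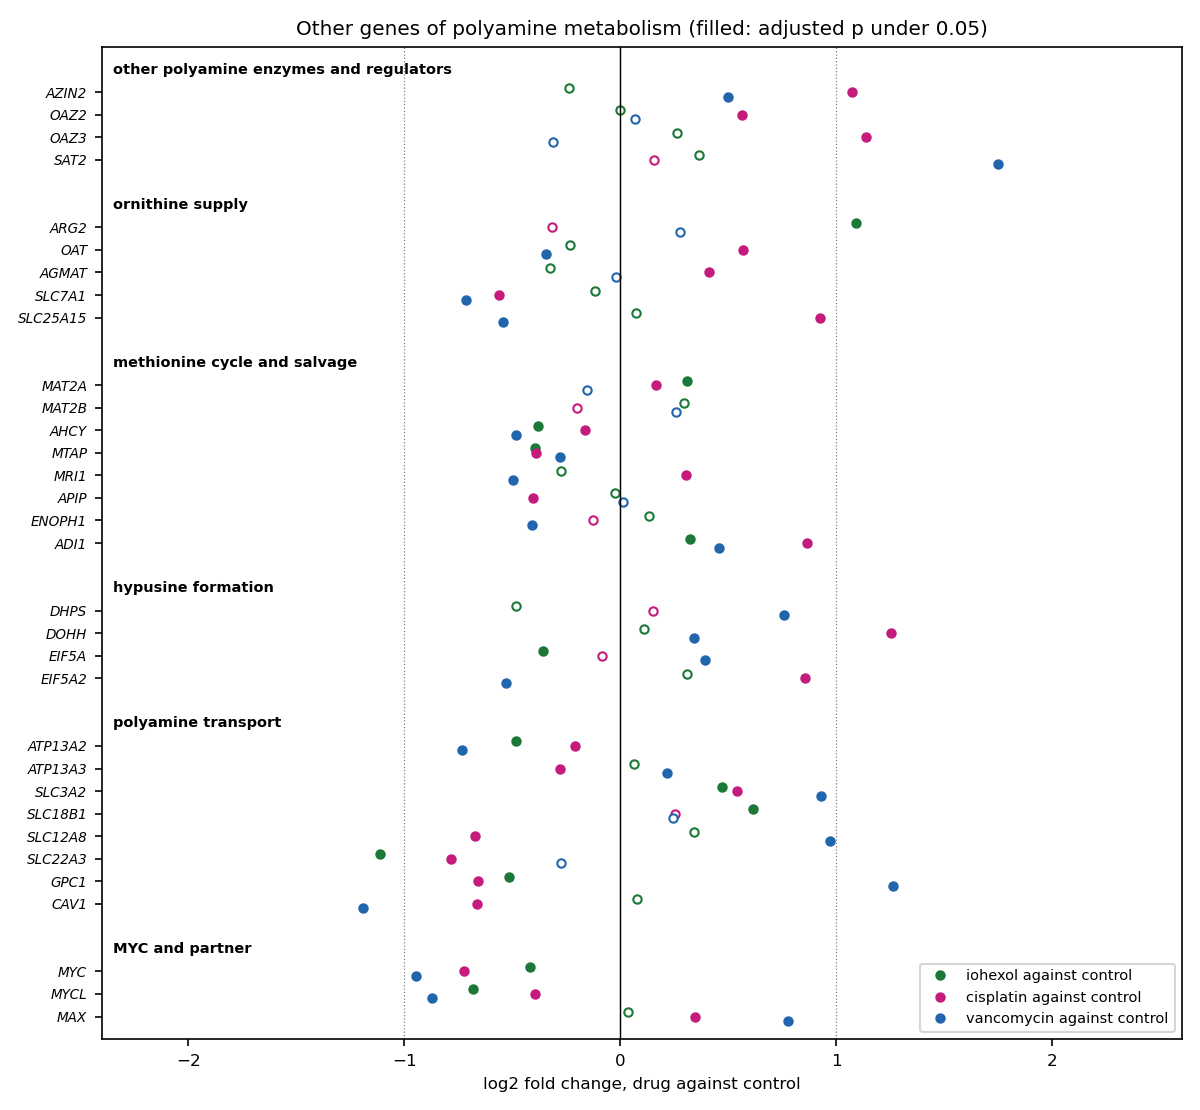
Log2 fold change against the control group of the 32 genes of the list tested with every drug, arranged by class, with 1 symbol per drug and filled symbols at an adjusted p under 0.05. Cisplatin points stand at 1.25 for DOHH and 1.07 for AZIN2, and vancomycin points at 1.75 for SAT2 and -1.19 for CAV1.

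The genes whose log2 CPM over the 12 samples was most like that of ODC1 were NOLC1 (Pearson r = 0.996), TSR1 (0.995), EBNA1BP2 (0.993), NIPAL1 (0.990) and HSPA12B (0.988). NOLC1 averaged 341 CPM in the control group, 243 with iohexol, 523 with cisplatin and 214 with vancomycin. For SAT1 they were SHOX2 (0.993), FOS (0.992), OXA1L (0.986), PPID (0.986) and CSRP2 (0.984). FOS averaged 1.92 CPM in the control group, 2.73 with iohexol, 15.03 with cisplatin and 37.2 with vancomycin. These were the highest among the 17073 genes that passed the filter, leaving out the members, over samples that share libraries and 4 groups.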

How the data were processed

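Poly(A)-selected RNA of HK-2 cells was sequenced from NEBNext Ultra libraries. The authors deposited raw read counts for each gene, not normalized, together with gene lengths. The submitters' processing notes name CASAVA 1.8, fastp, HISAT2 2.0.5, featureCounts 1.5.0-p3 and DESeq2 1.20.0, and the strand setting is not given in the sources used here. All 58735 gene positions equal those of GENCODE 29 on GRCh38. Reads shared with copies of a gene can be lost in counting.

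Drug effects came from separate fits of 1 drug and the control samples, and differences between drugs from a fit of all 12 samples, with edgeR 4.0.16 in R 4.3.3 (TMM, filterByExpr at 10 counts, total at least 15, glmQLFit, glmQLFTest), adjusted by the Benjamini-Hochberg method over all genes tested. Intervals are 95%. Log2 CPM used a prior count of 2. Plots used matplotlib 3.10.9 (Python 3.11.15). The script was tested on simulated data.

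Alternatives were RLE factors, library size only, at least 1 count, at least 10 counts in every sample, limma-voom (limma 3.58.1), DESeq2 1.42.0, another choice of groups in the fit, a replicate block and leaving out each sample. The members and lists were chosen with earlier results of these data known. Named besides the members were list genes that were DEGs, 12 list genes named for their role, the 5 genes most like ODC1 and SAT1 each, and pseudogene copies. 1 gene that this rule names is not reported here.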

Additional observations from a re-analysis of the deposited data

Results flagged for a closer look

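Drugs differed in their effect on 8 of the 9 genes tested. Each pair of drug groups was contrasted in edgeR's quasi-likelihood test of all 12 samples, with values on the log2 scale. Of all 17073 genes tested, 54.0% were called for cisplatin against iohexol, 56.6% for vancomycin against iohexol and 64.7% for vancomycin against cisplatin. The share called in any of these contrasts was not computed, so the count of 8 does not set these genes apart. The mean of the control samples does not enter such a contrast. OAZ1 was called between no pair of drugs (adjusted p = 0.197, 0.730 and 0.332).

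Cisplatin exceeded iohexol for ODC1 (1.70, SE 0.082, adjusted p = 1.35e-12), SRM (0.72, SE 0.073, adjusted p = 7.69e-08), SAT1 (1.14, SE 0.095, adjusted p = 3.99e-09), SMOX (0.91, SE 0.11, adjusted p = 1.39e-06) and PAOX (1.33, SE 0.25, adjusted p = 0.000170). The 1 gene lower with cisplatin was AMD1 (-0.37, SE 0.10, adjusted p = 0.00454). ODC1 and SRM rose with cisplatin and fell with iohexol against the same control samples, while SAT1 and SMOX were called with cisplatin only.

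Vancomycin exceeded iohexol for SMS (0.54, SE 0.083, adjusted p = 1.52e-05), SAT1 (1.77, SE 0.096, adjusted p = 6.05e-12), SMOX (1.63, SE 0.11, adjusted p = 3.23e-10) and PAOX (0.65, SE 0.27, adjusted p = 0.0430). It was below iohexol for ODC1 (-0.24, SE 0.082, adjusted p = 0.0182), AZIN1 (-0.68, SE 0.090, adjusted p = 2.25e-06) and AMD1 (-0.39, SE 0.10, adjusted p = 0.00334). The call of ODC1 was lost without iohexol sample 3 (adjusted p = 0.0698) or vancomycin sample 1 (0.101), and in the fit of only those 2 drug groups (0.0528).

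Vancomycin exceeded cisplatin for SMS (0.69, SE 0.083, adjusted p = 3.83e-07), SAT1 (0.63, SE 0.093, adjusted p = 5.83e-06) and SMOX (0.72, SE 0.11, adjusted p = 1.02e-05). It was below cisplatin for ODC1 (-1.93, SE 0.083, adjusted p = 1.39e-13), AZIN1 (-0.66, SE 0.090, adjusted p = 2.22e-06), SRM (-0.87, SE 0.073, adjusted p = 2.55e-09) and PAOX (-0.68, SE 0.24, adjusted p = 0.0168). For PAOX the call between vancomycin and cisplatin was lost without cisplatin sample 2 (adjusted p = 0.0571) or 3 (0.0508) or vancomycin sample 2 (0.0697) or 3 (0.0527), and the call between vancomycin and iohexol was lost without control sample 2 (0.0507), iohexol sample 3 (0.223), cisplatin sample 2 (0.0506) or 3 (0.0518) or vancomycin sample 1 (0.177) or 3 (0.0577). It was also lost when scaled by library size alone (adjusted p = 0.159), with all genes of at least 1 count (0.0731), under DESeq2 (0.0571) and in the fit of only those 2 drug groups (0.0992).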

How the results depend on the processing

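Against the control group, the calls of ODC1, SAT1, SMOX, SRM with cisplatin and vancomycin, SMS with iohexol and cisplatin, and AZIN1 and AMD1 with vancomycin kept their direction and stayed past the threshold under every alternative run. Scaling by library size alone lowered the count of the 9 genes called lower with cisplatin from 2 to 1 and that of the list from 12 to 6. It turned the sign of values that were not called with TMM, AZIN1 (0.064) and OAZ2 (0.069) with iohexol, AZIN1 (0.17) and EIF5A (0.13) with cisplatin, OAZ1 (-0.040) and OAZ2 (-0.010) with vancomycin, AZIN1 (0.11) for cisplatin against iohexol and OAZ1 (-0.17) for vancomycin against iohexol. With all genes of at least 1 count SAT1 with iohexol was at -0.019, and with at least 10 counts in every sample AZIN1 and OAZ2 with iohexol were at 0.0086 and 0.014. The list genes called higher with iohexol were 5, and 3 under the filter of 1 count. SRM was called lower with vancomycin than with iohexol under DESeq2 (adjusted p = 0.0408), under 10 counts in every sample (0.0357) and under library size alone (0.000272). Of the other list genes, library size alone ended the calls of EIF5A with iohexol (adjusted p = 0.0712), MTAP (0.0507) and ATP13A3 (0.386) with cisplatin and AZIN2 (0.101), DHPS (0.0588), DOHH (0.0708) and ATP13A3 (0.176) with vancomycin, and called SAT2 with cisplatin (0.0346) and MAT2A with vancomycin (0.0267). The filter of 1 count ended those of MAT2A with iohexol (0.0504) and cisplatin (0.0765) and of AZIN2 (0.0598) and ATP13A3 (0.0778) with vancomycin. DESeq2 ended those of AZIN2 (0.0754) and DHPS (0.0512) with vancomycin. The fit of all 4 groups ended those of MAT2A with cisplatin (0.0785) and DHPS with vancomycin (0.0686) and called OAT with iohexol (0.0227). The cause was not tested.

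Leaving out 1 sample gave 3 to 7 list genes higher and 5 to 9 lower with iohexol. The lowest count of lower genes was without control sample 2, and 3 higher genes were found without each control sample and without iohexol sample 1 or 2. Ranges that crossed 0 were, with iohexol, AZIN1 (-0.10 to 0.051), SAT1 (-0.079 to 0.094), OAZ1 (-0.0050 to 0.13), AMD1 (-0.063 to 0.16), OAZ2 (-0.085 to 0.11), AZIN2 (-0.40 to 0.0083), DOHH (-0.0051 to 0.24) and ATP13A3 (-0.080 to 0.15). With cisplatin DHPS ranged over -0.13 to 0.48, and with vancomycin OAZ1 over -0.032 to 0.10 and SMS over -0.14 to 0.013. Between drugs AZIN1 ranged over -0.088 to 0.074 for cisplatin against iohexol, OAZ1 over -0.040 to 0.099 for vancomycin against iohexol and AMD1 over -0.071 to 0.054 for vancomycin against cisplatin. The AZIN1 to OAZ1 log2 ratio with iohexol ranged over -0.23 to 0.018. The main values of these were not called.

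Samples with the same replicate number did not deviate together, with a mean correlation of -0.021 over 18 pairs (range -0.18 to 0.10), and 2 of 12 samples were closest to their own number. With the replicate block 3 list genes were called higher with iohexol in place of 5, and SRM with iohexol had an adjusted p of 0.0635. The block also ended the calls with iohexol of EIF5A (0.0741), MAT2A (0.0918) and MTAP (0.0669) and that of PAOX between vancomycin and iohexol (0.0513), and changed no other call of a named gene. Over all alternatives 1526 values of single genes kept direction and side of the threshold, 80 fell short of it, 14 came to pass it and 34 turned sign. Low counts limit PAOX, OAZ3 and DHPS, which held at most 79, 36 and 65 counts in a sample, and AOC1. Overlaps with other genes were looked up for the 10 members only, and why DHPS had few counts was not tested.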
